A study of Homo sapiens with 18 samples.

Results

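The genes described here encode the machinery of autophagy and the lysosome. They are 40 named genes, chosen by symbol with the condition that their mean level over all libraries was at least 1 TPM (transcript abundance as a share of the library, scaled for transcript length). All 40 met the condition, of 45372 symbols in the expression table and 14117 symbols that reached the same mean. They fall into 5 genes of autophagy initiation and nucleation, 5 ATG8 conjugation enzymes, 4 ATG8 proteins, 3 autophagy receptors, the transcription factors TFEB and TFE3, 5 lysosomal membrane proteins, 7 lysosomal proteases, and 9 genes for glycan hydrolases and the sterol carrier NPC2.

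In autophagy, a double membrane closes around cytoplasm or damaged organelles, including mitochondria, and fuses with the lysosome, where hydrolases degrade the content. The membrane grows as small ubiquitin-like ATG8 proteins (the LC3 and GABARAP families) are joined to lipid, and receptors such as SQSTM1 hold the cargo. TFEB and TFE3 bind a short DNA element in many lysosomal gene promoters and are kept in the cytoplasm by mTORC1 when nutrients are plentiful, so their activity is set largely by location and not by transcript level. ATF4, the transcription factor of the integrated stress response, is known to act on several autophagy genes.

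RNA was sequenced from MV4-11 and THP1, established acute myeloid leukemia (AML) cell lines of monocytic type that carry KMT2A rearrangements. Each line was given DMSO, the vehicle, or 50 nM IACS-010759 (hereafter IACS), an inhibitor of complex I of the mitochondrial electron transport chain. IACS was given for 8 h or 24 h. The labels do not give the duration of the DMSO treatment, and in each line the same 3 DMSO libraries served as control for both times. Each of the 6 groups held 3 libraries labelled as independent replicates, 18 in all. The question asked was how the transcriptome responds to complex I inhibition.

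The libraries held an estimated 21700000 to 28500000 reads, and the 40 genes together summed to between 1095 and 1642 TPM. A set of 5 abundant non-coding RNAs took 39.6% to 60.1% of all TPM, and because TPM is a share, every other gene moves in the opposite direction when they move. In MV4-11 the replicate 3 libraries with IACS stood apart, at 39.6% after 8 h and 42.9% after 24 h against 47.3% to 51.9% in the other 7. Each comparison is therefore also given after median-of-ratios rescaling, which sets the median gene at no change. The myeloid markers FLT3, CD33 and SPI1 were present in both lines, CD34 was at or below 0.106 TPM and CD14 below 1 TPM. T cell, fibroblast and erythroid marker sums were at or below 0.281, 0.0737 and 2.04 TPM. B cell and epithelial marker sums were higher, reaching 3.26 and 4.25 TPM. Less RNA per cell and fewer cells of a type cannot be told apart in bulk RNA.

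The element that TFEB and TFE3 recognise was searched in RefSeq promoter windows (GRCh38.p14, 250 bases before to 50 bases after the annotated start), which were available for 34 of the 40 genes. The core CACGTG was in 9 of 34 windows (26.5%), against 10.4% of the windows of expressed genes and 7.43% of all 27305 windows. The longer palindrome TCACGTGA, which contains the core, was in 5 of 34 (14.7%), against 2.04% and 1.04%. Both read the same on either strand. The element of ATF4 and CHOP dimers, TGATGNAA, searched on both strands, was in 0 of the 34 windows, in 1.58% of those of expressed genes and in 3.67% of all. The 5 windows with the palindrome are shown because they join autophagy to the lysosome: ATG3 encodes the enzyme that transfers ATG8 proteins to lipid, LAMP1 a main glycoprotein of the lysosomal membrane, MCOLN1 a lysosomal calcium channel, CTSA a carboxypeptidase that also protects other hydrolases, and GAA the enzyme that degrades glycogen in the lysosome. The stretches, written 5′ to 3′ on the gene's strand, lie at chr3:112561921-112561988 (minus strand), chr13:113297180-113297274, chr19:7522552-7522646, chr20:45891279-45891346 and chr17:80101474-80101586 (plus strand), and capitals mark TCACGTGA.
ATG3: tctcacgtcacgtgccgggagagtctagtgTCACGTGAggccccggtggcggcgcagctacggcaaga
LAMP1: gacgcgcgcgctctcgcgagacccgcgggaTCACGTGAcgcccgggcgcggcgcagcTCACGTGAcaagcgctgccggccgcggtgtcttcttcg
MCOLN1: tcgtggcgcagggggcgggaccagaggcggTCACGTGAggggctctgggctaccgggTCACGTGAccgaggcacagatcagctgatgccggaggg
CTSA: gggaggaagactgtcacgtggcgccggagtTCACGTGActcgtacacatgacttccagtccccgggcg
GAA: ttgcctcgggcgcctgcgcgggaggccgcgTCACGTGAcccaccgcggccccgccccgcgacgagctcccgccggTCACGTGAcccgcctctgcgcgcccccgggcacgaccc
LAMP1, MCOLN1 and GAA held the palindrome at 2 positions each. A match describes the letters of the window and says nothing of binding in these cells.

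The lines were compared first in DMSO. THP1 had higher levels of 5 of the 7 lysosomal proteases and MV4-11 had higher levels of GABARAP, SGSH and MCOLN1. A gene was called where limma on log2(TPM + 1) gave a Benjamini-Hochberg adjusted p under 0.05 over all genes tested and a change of more than 1.5-fold. By this rule 13 of 40 genes were called, 10 higher and 3 lower in THP1. The shares among all 14117 genes tested were 36.9% called, 19.7% higher and 17.2% lower, so the members' total lay near the background. The median log2 difference was 0.00 over the members and 0.01 over all genes. Rescaling left NEU1 just under the fold threshold (log2 difference 0.57) and kept the other 12. CTSL, SGSH and GABARAPL1 passed the filter at 1 TPM only through the line in which they are higher. With the other line below 1 TPM on average, a difference between the lines was built into their selection. CTSL and SGSH are among the 13 called, and nothing is read from their difference.

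**Figure D1:**
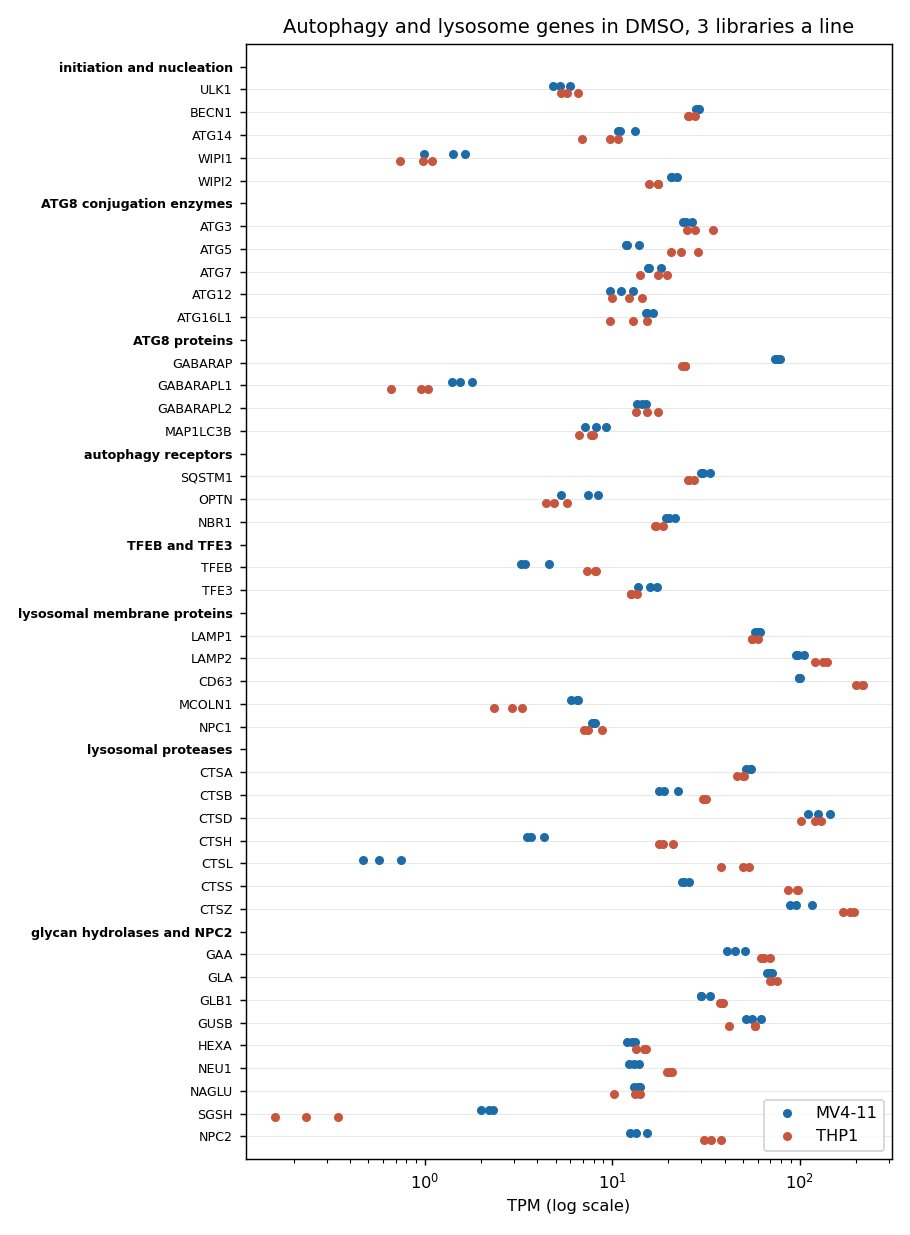
TPM of the 40 genes in the DMSO libraries, on a log axis, with 3 points for MV4-11 (blue) and 3 for THP1 (red) and genes grouped by role. CTSL, CTSH and CTSS lie farthest to the right in THP1 relative to MV4-11, and GABARAP, SGSH and MCOLN1 lie to the left.

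Of the 7 proteases 5 were called higher in THP1, among them CTSL, whose difference was built into its selection. CTSL (cathepsin L, a cysteine endopeptidase) was at 0.575, 0.470 and 0.745 TPM in MV4-11 and at 53.6, 50.2 and 38.3 TPM in THP1. Its ratio of means was 79.4 (log2 difference 4.91 ± 0.16 SE). The lowest of the 9 MV4-11 libraries held an estimated 16.5 CTSL reads. CTSH, an aminopeptidase, was at 3.71, 3.50 and 4.32 TPM in MV4-11 and at 18.6, 17.8 and 21.1 TPM in THP1 (log2 difference 2.06 ± 0.11, limma adjusted p = 1.81e-11). CTSS (cathepsin S, which processes the class II invariant chain) was at 23.7, 24.2 and 25.7 TPM in MV4-11 and at 98.0, 86.7 and 96.8 TPM in THP1 (1.89 ± 0.11, limma adjusted p = 5.62e-11). The ranges of the lines did not overlap for CTSH or for CTSS. CTSZ, a carboxypeptidase, and CTSB, the most studied cysteine cathepsin, were higher by 0.88 and 0.63 on the log2 scale. CTSA was at 53.7 ± 1.69 TPM in MV4-11 and 49.0 ± 2.11 TPM in THP1 (mean ± SD of 3 libraries, as below). CTSD (cathepsin D, the main aspartic protease) was at 110, 126 and 146 TPM in MV4-11 and 121, 131 and 102 TPM in THP1, and its ranges overlapped.

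Of the glycan hydrolases and NPC2, 2 were higher and 1 was lower in THP1. NPC2, which hands cholesterol to NPC1 inside the lysosome, was at 12.5, 13.4 and 15.3 TPM in MV4-11 and at 33.7, 31.1 and 37.9 TPM in THP1 (log2 difference 1.26 ± 0.18, limma adjusted p = 1.39e-05). NEU1, a sialidase, was at 13.1 ± 0.80 TPM in MV4-11 and 20.2 ± 0.721 TPM in THP1, a difference at the threshold (0.59). SGSH, a sulfatase that degrades heparan sulfate, went the other way, a difference built into its selection. It was at 2.31, 2.00 and 2.21 TPM in MV4-11 and 0.345, 0.233 and 0.159 TPM in THP1 (log2 difference −1.35 ± 0.15). Its level in THP1 was 0.113 times that in MV4-11 and rested on as few as an estimated 11 reads. The other 6 (GAA, GLA, GLB1, GUSB, HEXA and NAGLU, which remove sugars from glycogen, glycolipids and glycosaminoglycans) were not called, although GAA reached an adjusted p of 0.0106 by limma at a log2 difference of 0.51.

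Among the membrane proteins, CD63, a tetraspanin of late endosomes, was higher in THP1 (212 ± 9.57 TPM against 100 ± 0.884 TPM, log2 difference 1.07) and MCOLN1 was lower. MCOLN1 was at 6.04, 6.56 and 6.49 TPM in MV4-11 and at 3.31, 2.93 and 2.34 TPM in THP1, without overlap (−0.94 ± 0.15, limma adjusted p = 3.79e-05). LAMP2, the companion of LAMP1, was at 100 ± 5.06 and 131 ± 9.38 TPM, past the adjusted p (0.0195, limma) and not the fold. LAMP1 was at 57.6, 60.3 and 61.9 TPM in MV4-11 and 60.1, 55.7 and 56.0 TPM in THP1, and the ranges overlapped. NPC1, the cholesterol exporter, stood at 7.96 ± 0.144 and 7.79 ± 0.938 TPM.

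TFEB was higher in THP1 (3.43, 3.27 and 4.60 TPM in MV4-11 against 8.22, 8.08 and 7.38 TPM in THP1, log2 difference 0.91 ± 0.19, limma adjusted p = 0.000571). TFE3 was at 15.9, 17.3 and 13.7 TPM in MV4-11 and 12.6, 13.6 and 12.6 TPM in THP1, and was not called. TFE3 transcripts thus exceeded TFEB transcripts in every DMSO library of both lines on the length-scaled TPM scale, by a wider margin in MV4-11.

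On the autophagy side, 2 of 17 genes were called. ATG5, which joins ATG12 to form part of the ligase for ATG8 proteins, was higher in THP1 (24.3 ± 4.17 against 12.6 ± 1.17 TPM, log2 difference 0.88). GABARAP was lower, at 74.1, 78.9 and 75.7 TPM in MV4-11 and 24.6, 23.7 and 24.6 TPM in THP1, 0.318 times the MV4-11 mean (−1.61 ± 0.12, limma adjusted p = 1.84e-09). It was the most abundant ATG8 gene in both lines. GABARAPL1 was at 1.55, 1.78 and 1.40 TPM in MV4-11 and at 1.05, 0.664 and 0.959 TPM in THP1. It passed the filter only through MV4-11, so nothing is read from its log2 difference of −0.45, which did not pass the fold. MAP1LC3B, which encodes LC3B, the usual marker protein of autophagosomes, was at 9.26, 8.18 and 7.18 TPM in MV4-11 and at 7.89, 6.68 and 7.73 TPM in THP1, with overlap. GABARAPL2 stood at 14.4 ± 0.824 and 15.5 ± 2.14 TPM.

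No receptor and no initiation gene was called between the lines (0 of 3 and 0 of 5, with 1 of each at an unadjusted limma p under 0.05). SQSTM1 (p62) was at 29.7, 33.2 and 30.7 TPM in MV4-11 and 25.4, 25.7 and 27.3 TPM in THP1, without overlap, at a log2 difference of −0.25 (95% interval −0.49 to 0.00). The mitophagy receptor OPTN was at 7.07 ± 1.58 and 5.03 ± 0.655 TPM, and NBR1, a relative of p62 in function, at 20.4 ± 1.21 and 17.6 ± 0.987 TPM. ULK1, the kinase that starts autophagy, had means of 5.37 and 5.90 TPM. BECN1 and ATG14, subunits of the lipid kinase that marks the growing membrane, had means of 28.7 and 26.3 TPM and of 11.7 and 9.14 TPM. WIPI1 and WIPI2, which read that lipid mark, had means of 1.35 and 0.941 TPM and of 21.2 and 17.0 TPM. ATG3, ATG7, ATG12 and ATG16L1, which make up the rest of the conjugation system, had log2 differences of 0.19, 0.04, 0.10 and −0.31.

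The 13 genes called between the lines in DMSO were also read with IACS, without a further test. All 13 kept their direction after 8 h and after 24 h, 12 and 10 of them without overlap. The difference was beyond the fold threshold for 11 of them after 8 h and for 9 after 24 h. These genes were chosen for their call in DMSO. No share of all genes is given beside these counts, so nothing particular to the members is read from them. After 24 h TFEB stood at means of 5.46 TPM in MV4-11 and 6.49 TPM in THP1, CTSB at 27.4 and 29.4 TPM, CTSZ at 102 and 129 TPM, and NEU1 at 16.3 and 20.7 TPM. CTSL differed most at every time, with 44.8 TPM in THP1 and 0.424 TPM in MV4-11 after 24 h.

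With IACS, no member was called in either line at either time. In MV4-11, 39 members were tested, since CTSL was below 1 TPM. After 8 h limma called 0 of 39 (0.0148% of all 13542 genes), and 2 had an unadjusted p under 0.05 (4.39% of all genes). After 24 h it called 0 of 39 (0.0886% of all genes), and 8 members had an unadjusted p under 0.05, all of them higher with IACS (12.0% of all genes in either direction). All 3 libraries with IACS lay above all 3 with DMSO for 4 members after 8 h (7.13% of all genes) and for 16 after 24 h (19.4%). For 0 members did they all lie below, at 8 h (1.65% of all genes) or at 24 h (5.26%). These counts are of TPM as deposited. After rescaling fewer members lay above DMSO at 24 h, and ATG5 lay below it. SQSTM1, TFEB, LAMP1 and MCOLN1 were among those that then overlapped DMSO. The count of 16 thus depends on the scale. No rescaled share of all genes is given beside it, so nothing particular to the members is read from it. An exact Kruskal-Wallis test over the 3 groups, with no adjustment over genes and the same fold threshold, also called 0 members in either line at either time.

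The members' log2 changes in MV4-11 had a median of 0.12 after 8 h and 0.16 after 24 h, with 33 and 34 of 39 above 0. The median over all genes was 0.06 and 0.08, so most of all genes tested also lay above 0. After rescaling the members' medians were 0.05 and 0.07, with 24 and 27 of 39 above 0. The non-coding share was lowest and the sum of the members highest in the replicate 3 libraries with IACS. Their member sums were 1541 and 1426 TPM against 1095 to 1272 TPM in the other 7 MV4-11 libraries. The sum of the 14 monocytic markers was 4957 to 6532 TPM in DMSO and 4030 to 7275 TPM after 24 h, and 5 of the 8 tested had log2 changes above 0. LYZ alone made up most of that sum, with a mean of 5372 TPM in DMSO. The part of these shifts in the change of single genes was not tested beyond the rescaled values and the values without those libraries given here.

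**Figure D2:**
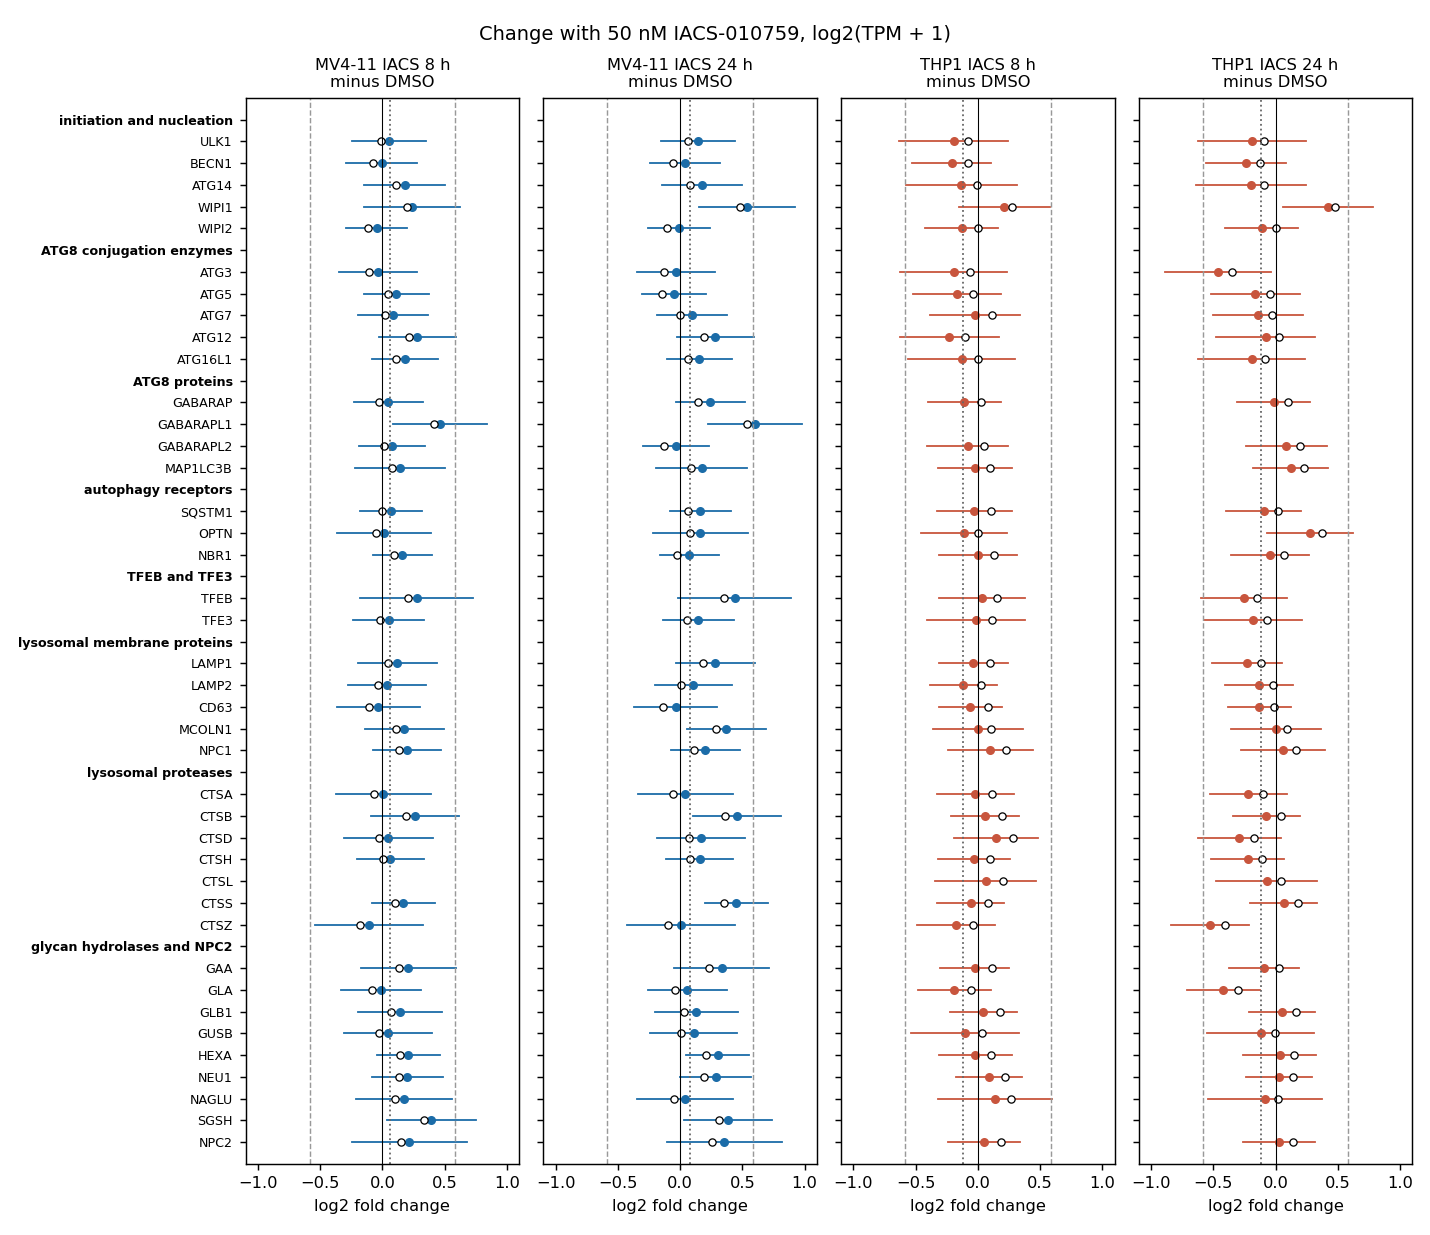
Log2 change of each gene with IACS against DMSO in the 4 comparisons, as deposited (filled points with 95% intervals) and after median-of-ratios rescaling (open points). Dotted lines give the median of all genes and dashed lines the fold threshold. GABARAPL1 in MV4-11 after 24 h is the only filled point beyond a dashed line.

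GABARAPL1, an ATG8 gene, had the largest change in MV4-11. It was at 1.55, 1.78 and 1.40 TPM in DMSO, at 2.42, 2.41 and 2.80 TPM after 8 h and at 3.56, 3.35 and 2.02 TPM after 24 h of IACS. Every library with IACS lay above every DMSO library, and replicate 3 was the lowest after 24 h. The ratio of means was 1.61 after 8 h (log2 change 0.46 ± 0.17, limma adjusted p = 0.982) and 1.88 after 24 h (0.60 ± 0.17, 95% interval 0.23 to 0.98, limma adjusted p = 0.205). Without the replicate 3 libraries with IACS, a setting chosen after seeing the data, the change after 24 h was 0.79 with a limma adjusted p of 0.0072, which is a call. GABARAPL1 was among the ATF4 targets that the study picked from these same libraries for its knockout library, so its direction is not independent evidence. In THP1 it was below 1 TPM on average and was not tested, with means of 0.890 TPM in DMSO, 0.806 TPM after 8 h and 1.02 TPM after 24 h.

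WIPI1 had the second largest change in MV4-11 after 24 h. It was at 1.42, 1.64 and 0.991 TPM in DMSO, at 1.48, 1.95 and 1.86 TPM after 8 h and at 2.85, 2.63 and 1.79 TPM after 24 h. The 24 h and DMSO libraries did not overlap, and the log2 change was 0.54 ± 0.18 (limma adjusted p = 0.255), or 0.68 (limma adjusted p = 0.0271), also a call, without the replicate 3 libraries with IACS. WIPI1 shares 24.4% of its exon length with ARSG on the opposite strand, and the library kit does not mark strand, so reads of the shared part cannot be assigned. ARSG had means of 5.18 TPM in DMSO and 7.10 TPM after 24 h.

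The other ATG8 genes and the receptors had smaller log2 changes in MV4-11. GABARAP was at 74.1, 78.9 and 75.7 TPM in DMSO and at 92.7, 102 and 78.4 TPM after 24 h, with 2 of 3 libraries above all DMSO libraries. MAP1LC3B was at 9.26, 8.18 and 7.18 TPM in DMSO, 8.44, 8.24 and 10.8 TPM after 8 h and 10.1, 11.2 and 7.14 TPM after 24 h, and its ranges overlapped at both times. SQSTM1 was at 29.7, 33.2 and 30.7 TPM in DMSO, 30.4, 30.8 and 37.5 TPM after 8 h and 35.4, 34.3 and 35.2 TPM after 24 h. After 24 h its libraries lay just above DMSO, at a log2 change of 0.16 (95% interval −0.09 to 0.41, limma adjusted p = 0.611), and rescaling left 0.06. SQSTM1 shares 21.0% of its exon length with MRNIP on the opposite strand.

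The conjugation enzymes and the remaining initiation genes of MV4-11 had log2 changes between −0.05 and 0.28 at both times. The lowest changes of all members tested in MV4-11 were those of WIPI2 and CTSZ after 8 h and of ATG5 and CD63 after 24 h. WIPI2 was at 20.9, 22.1 and 20.6 TPM in DMSO and 18.5, 19.8 and 23.5 TPM after 8 h. ATG5 was at 14.0, 12.1 and 11.8 TPM in DMSO and 12.5, 12.7 and 11.3 TPM after 24 h. Both overlapped DMSO as deposited. After rescaling WIPI2 after 8 h and ATG5 after 24 h lay below DMSO in every library.

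TFEB in MV4-11 was at 3.43, 3.27 and 4.60 TPM in DMSO, 3.55, 4.12 and 7.04 TPM after 8 h and 4.79, 4.93 and 6.67 TPM after 24 h. The 24 h libraries lay above DMSO and the replicate 3 library was the highest in each group. The log2 change after 24 h was 0.44 ± 0.21 (95% interval −0.02 to 0.89, limma adjusted p = 0.433) and 0.31 without the replicate 3 libraries with IACS. TFE3 was at 15.9, 17.3 and 13.7 TPM in DMSO, 13.9, 16.2 and 18.6 TPM after 8 h and 17.7, 18.2 and 16.2 TPM after 24 h, with overlap at both times.

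For the lysosomal membrane of MV4-11, MCOLN1 had the largest change. It was at 6.04, 6.56 and 6.49 TPM in DMSO, 6.13, 7.72 and 8.26 TPM after 8 h and 7.26, 8.23 and 10.3 TPM after 24 h, when no library overlapped DMSO (log2 change 0.37 ± 0.14, limma adjusted p = 0.330). LAMP1 was at 57.6, 60.3 and 61.9 TPM in DMSO, 58.7, 58.7 and 80.5 TPM after 8 h and 68.1, 67.5 and 85.3 TPM after 24 h, again with replicate 3 the highest with IACS (0.28 ± 0.15 after 24 h, limma adjusted p = 0.466). CD63 was at 99.2, 101 and 99.8 TPM in DMSO and 87.5, 91.5 and 116 TPM after 24 h, and LAMP2 had means of 100 and 108 TPM. NPC1 had means of 7.96, 9.33 and 9.35 TPM in DMSO, after 8 h and after 24 h.

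Of the proteases tested in MV4-11, CTSS and CTSB had the largest changes after 24 h. CTSS was at 23.7, 24.2 and 25.7 TPM in DMSO, 26.3, 25.2 and 32.1 TPM after 8 h and 35.4, 34.0 and 32.4 TPM after 24 h. All 24 h libraries lay above all others, with a log2 change of 0.45 ± 0.12 (95% interval 0.20 to 0.70, limma adjusted p = 0.153). After rescaling the change was 0.36 with a limma adjusted p of 0.0496, under the p threshold and not past the fold, the only member for which this held in MV4-11. CTSB was at 17.7, 19.0 and 22.6 TPM in DMSO, 19.8, 21.3 and 31.6 TPM after 8 h and 28.6, 27.1 and 26.5 TPM after 24 h, without overlap after 24 h (0.46 ± 0.16, limma adjusted p = 0.290). CTSD was at 110, 126 and 146 TPM in DMSO, 113, 119 and 167 TPM after 8 h and 138, 132 and 159 TPM after 24 h, and CTSZ at 89.2, 95.6 and 116 TPM, 79.6, 80.0 and 123 TPM and 87.6, 88.1 and 129 TPM, both with overlap. CTSA and CTSH had log2 changes of 0.04 and 0.16 after 24 h, and the CTSL mean was 0.597 TPM in DMSO and 0.424 TPM after 24 h.

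All 9 hydrolase and NPC2 genes of MV4-11 had log2 changes above 0 after 24 h, between 0.04 and 0.38, with a median of 0.29. After rescaling 7 of 9 were above 0, with a median of 0.19. SGSH was at 2.31, 2.00 and 2.21 TPM in DMSO, 2.50, 3.02 and 4.13 TPM after 8 h and 3.26, 3.53 and 2.67 TPM after 24 h, above DMSO in every library at both times (0.39 after 8 h, limma adjusted p = 0.982, and 0.38 after 24 h, adjusted p = 0.371). HEXA, a subunit of hexosaminidase, was at 12.7 ± 0.592 TPM in DMSO, 14.8 ± 1.84 TPM after 8 h and 15.8 ± 0.740 TPM after 24 h. NEU1 was at 13.1 ± 0.80 TPM in DMSO and 16.3 ± 0.159 TPM after 24 h. GAA was at 45.9 ± 5.17 TPM in DMSO and 58.2 ± 9.12 TPM after 24 h, and NPC2 was at 12.5, 13.4 and 15.3 TPM in DMSO and at 15.3, 16.0 and 22.8 TPM after 24 h.

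**Figure D3:**
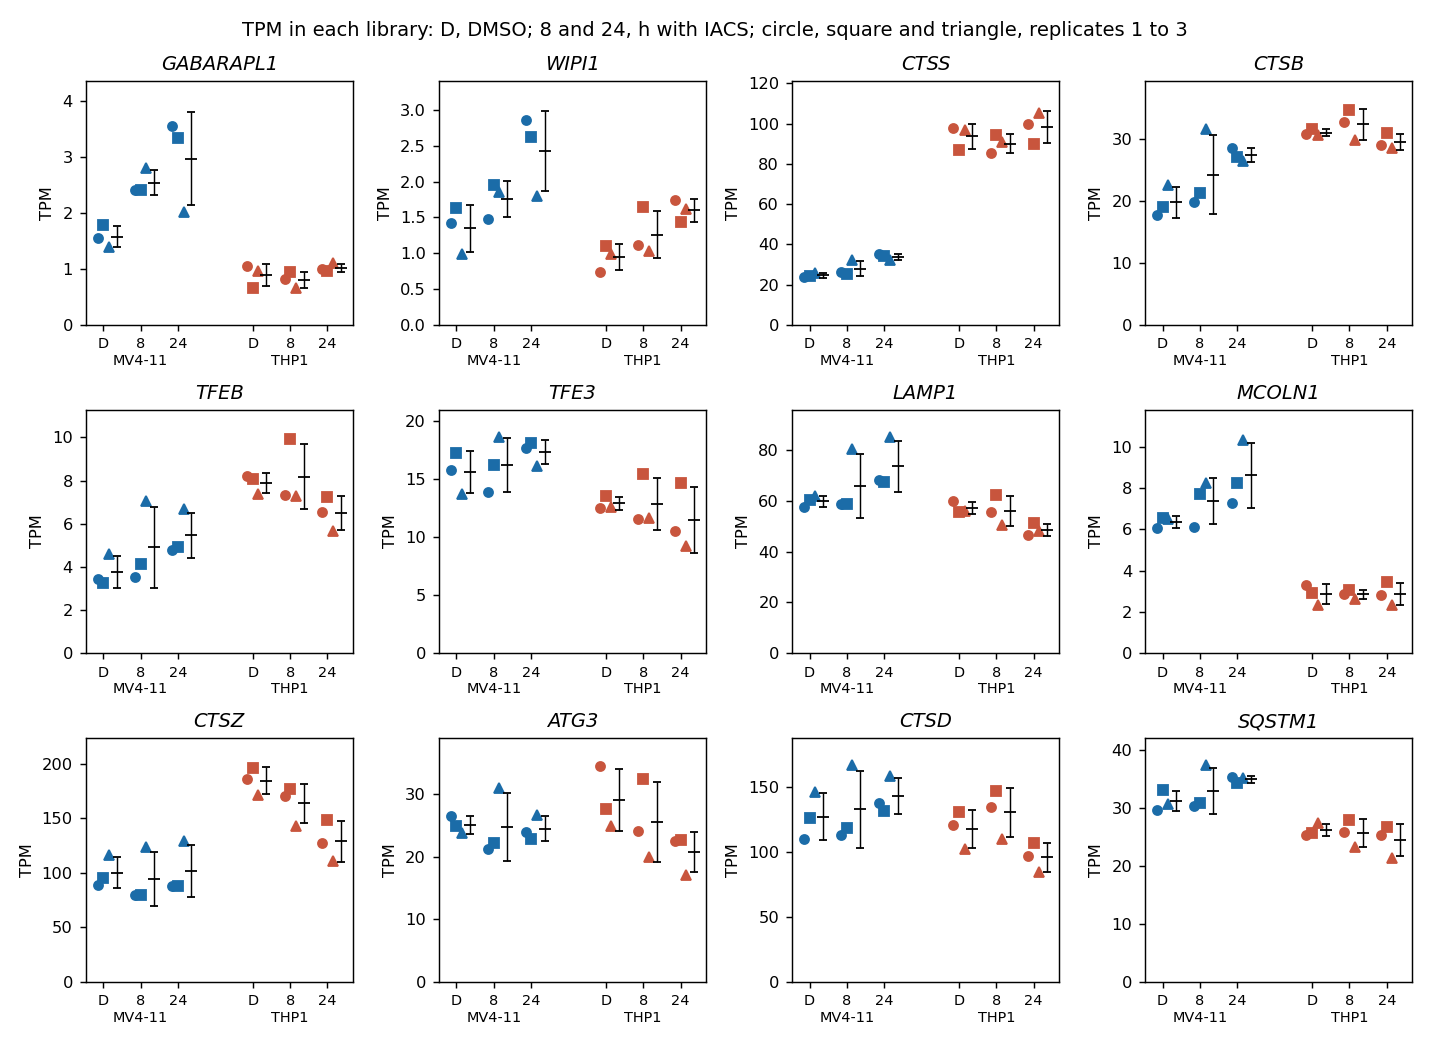
TPM of 12 genes in every library, with the mean and SD of the 3 libraries of each group beside the points (D, DMSO, then 8 h and 24 h of IACS, each axis from 0). GABARAPL1, CTSS and CTSB are higher after 24 h than in DMSO in all MV4-11 libraries, while CTSZ and LAMP1 are lower after 24 h in all THP1 libraries.

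In THP1, 38 members were tested, since SGSH and GABARAPL1 were below 1 TPM. After 8 h limma called 0 of 38 (0.0144% of all 13928 genes), and 0 members had an unadjusted p under 0.05 (2.11% of all genes). After 24 h it called 0 of 38 (0.0431%), and 4 had an unadjusted p under 0.05 (8.61% of all genes), WIPI1 higher and CTSZ, ATG3 and GLA lower. After 8 h all libraries with IACS lay above DMSO for 1 member, NEU1 (0.704% of all genes), and below for 0 (4.06%). After 24 h they lay above for 1 (3.32% of all genes) and below for 6 (10.2%), namely ATG3, TFEB, LAMP1, CTSH, CTSZ and GLA. These counts are of TPM as deposited. After rescaling NEU1 after 8 h and LAMP1 and CTSH after 24 h overlapped DMSO. WIPI1 and CTSD were among the genes that then lay above DMSO after 8 h.

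The direction of the members in THP1 depended on the scale. The median log2 change was −0.03 after 8 h and −0.10 after 24 h, with 12 and 11 of 38 above 0, while the median over all genes was −0.12 at both times. After rescaling the members' medians were 0.10 and 0.01, with 28 and 20 of 38 above 0. The non-coding share was higher with IACS than in the DMSO library of the same number, except in replicate 2 after 8 h. After 24 h the 9 monocytic markers tested all had log2 changes below 0, with a median of −0.31, and the sum of the whole list of 14 was 1418 to 1619 TPM in DMSO and 1064 to 1255 TPM after 24 h. LYZ made up most of that sum, with a mean of 986 TPM in DMSO. FCN1, MRC1 and CD163 of that list were at or near 0. The part of these markers in the results for THP1 was not tested.

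CTSZ had the largest change in THP1. It was at 186, 196 and 171 TPM in DMSO, 170, 177 and 143 TPM after 8 h and 127, 149 and 111 TPM after 24 h. All 24 h libraries lay below DMSO, with a log2 change of −0.52 ± 0.14 (95% interval −0.84 to −0.21, limma adjusted p = 0.414). After rescaling it was −0.41 (limma adjusted p = 0.0447). A fit that added a replicate block, since THP1 libraries with the same number deviated together, gave a limma adjusted p of 0.0044. Both were short of the fold. CTSZ shares 31.7% of its exon length with NELFCD on the opposite strand. NELFCD had means of 25.1 TPM in DMSO and 18.6 TPM after 24 h.

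CTSD was at 121, 131 and 102 TPM in DMSO, 135, 147 and 110 TPM after 8 h and 96.7, 107 and 84.7 TPM after 24 h. The 24 h libraries overlapped DMSO and lay below all 8 h libraries. Between 8 h and 24 h the log2 change was −0.43 ± 0.15 (limma adjusted p = 0.819), −0.45 after rescaling (adjusted p = 0.0279). CTSH had means of 19.2 TPM in DMSO and 16.2 TPM after 24 h, and the cysteine proteases CTSS, CTSB and CTSL had log2 changes of 0.07, −0.08 and −0.07 after 24 h.

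The remaining lysosomal genes of THP1 held 1 further gene with a low unadjusted p. GLA, which removes galactose from glycolipids, was at 75.6, 69.2 and 70.4 TPM in DMSO and 57.4, 50.8 and 52.1 TPM after 24 h, without overlap (log2 change −0.42 ± 0.13, limma adjusted p = 0.492, or 0.0205 with the replicate block). LAMP1 was at 60.1, 55.7 and 56.0 TPM in DMSO, 55.5, 62.2 and 50.4 TPM after 8 h and 46.6, 51.3 and 48.1 TPM after 24 h, when it lay below DMSO (−0.23 ± 0.13, limma adjusted p = 0.618). LAMP2, CD63, MCOLN1 and NPC1 had log2 changes between −0.13 and 0.06 after 24 h.

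TFEB in THP1 was at 8.22, 8.08 and 7.38 TPM in DMSO, 7.33, 9.92 and 7.30 TPM after 8 h and 6.57, 7.24 and 5.66 TPM after 24 h. The 24 h libraries lay below DMSO, at a log2 change of −0.25 ± 0.16 (95% interval −0.60 to 0.09, limma adjusted p = 0.646). TFE3 was at 12.6, 13.6 and 12.6 TPM in DMSO, 11.6, 15.5 and 11.7 TPM after 8 h and 10.6, 14.7 and 9.23 TPM after 24 h, with overlap.

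On the autophagy side of THP1, WIPI1 had the highest and ATG3 the lowest log2 change after 24 h. WIPI1 was at 0.743, 1.09 and 0.986 TPM in DMSO, 1.11, 1.64 and 1.03 TPM after 8 h and 1.74, 1.43 and 1.61 TPM after 24 h, when no library overlapped DMSO (log2 change 0.42 ± 0.17, limma adjusted p = 0.542). ARSG, its overlapping neighbour, had means of 1.91 and 2.01 TPM. ATG3 was at 34.6, 27.6 and 25.0 TPM in DMSO, 24.2, 32.5 and 19.9 TPM after 8 h and 22.6, 22.6 and 17.2 TPM after 24 h. Its 24 h libraries lay below DMSO (−0.46 ± 0.20, limma adjusted p = 0.552), with adjusted p of 0.0473 after rescaling and 0.0296 with the replicate block. OPTN was at 4.90, 4.45 and 5.74 TPM in DMSO, 4.40, 4.37 and 4.90 TPM after 8 h and 5.28, 6.42 and 7.30 TPM after 24 h, above all 8 h libraries and overlapping DMSO.

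The marker genes of autophagosomes and cargo lay close to DMSO in THP1. SQSTM1 was at 25.4, 25.7 and 27.3 TPM in DMSO, 25.8, 28.0 and 23.2 TPM after 8 h and 25.3, 26.7 and 21.4 TPM after 24 h. MAP1LC3B was at 7.89, 6.68 and 7.73 TPM in DMSO, 6.78, 7.41 and 7.71 TPM after 8 h and 7.85, 8.44 and 8.19 TPM after 24 h. Both overlapped DMSO, with 95% intervals after 24 h of −0.40 to 0.21 and of −0.18 to 0.42 on the log2 scale. The lowest genes after 8 h were ATG12 at 14.5, 12.3 and 9.95 TPM in DMSO and 9.41, 12.8 and 8.78 TPM with IACS, and BECN1 at 27.9, 25.4 and 25.6 TPM and 22.0, 25.8 and 20.3 TPM, both with overlap.

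Between 8 h and 24 h of IACS, limma called 0 of 39 members in MV4-11 (0% of all genes) and 0 of 38 in THP1 (0.00718%). At an unadjusted p under 0.05 there was 1 member in MV4-11, CTSS (2.30% of all genes), and 3 in THP1, OPTN higher and CTSD and CTSZ lower at 24 h (4.99% of all genes). Among 142 further genes of the same pathways the largest changes were those of TMEM175 (0.41) and PSAP, the precursor of the saposins (0.30), in MV4-11 and of CTSK (0.80) and DNASE2 (−0.64) in THP1, none of them called. In THP1, whose 8 h and 24 h libraries with the same number deviated together, the replicate block brought CTSK and DNASE2 to limma adjusted p of 0.0315 and 0.0121, which are calls.

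The response of the lines was compared in a single fit of all 18 libraries. For the difference between the THP1 and the MV4-11 response, limma called 0 of 40 members after 8 h (0.00708% of all genes) and 0 of 40 after 24 h (0.00708%). Only 37 of them reached 1 TPM in both lines. Among these 37, ATG12 had an unadjusted p under 0.05 after 8 h (3.16% of all genes), and TFEB, LAMP1, CTSB, CTSS, CTSH and GLA did after 24 h (7.10%), all with a lower response in THP1. GABARAPL1, SGSH and CTSL entered this fit through the line in which they are higher, and nothing is read from their difference in response. The median difference of the members after 24 h was −0.27 and that of all genes −0.18, and rescaling brought them to −0.05 and 0.01. For TFEB the difference was −0.69 ± 0.27 (95% interval −1.26 to −0.12, limma adjusted p = 0.681), and −0.49 after rescaling. WIPI1 was higher with IACS after 24 h in every library of both lines, with a difference between the lines of −0.12 (95% interval −0.59 to 0.35).

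**Figure D4:**
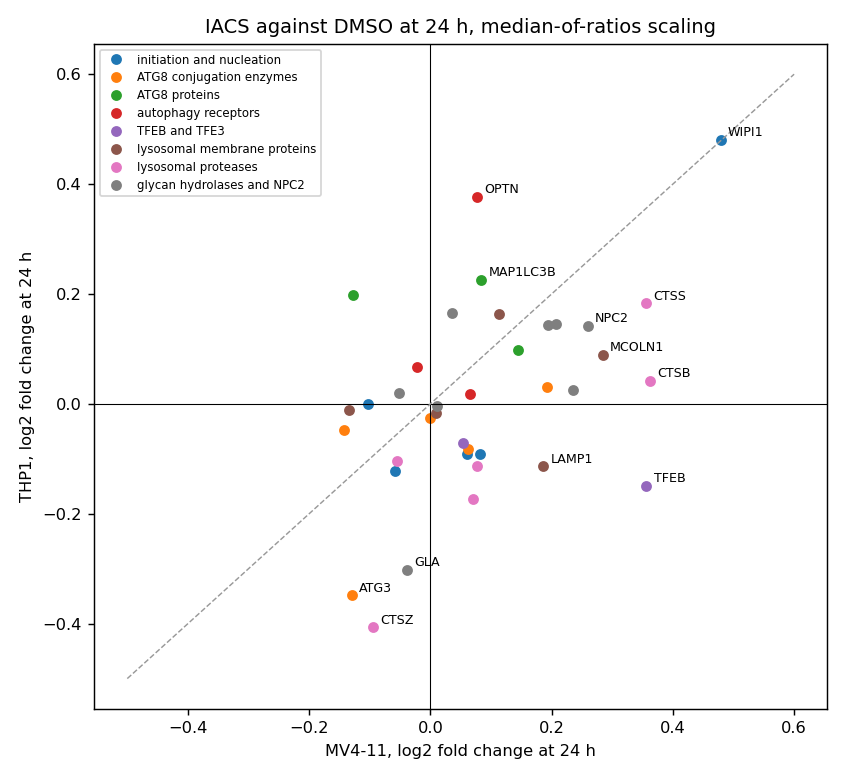
Log2 change after 24 h of IACS in MV4-11 and in THP1 for the 37 genes tested in both lines, after median-of-ratios rescaling, coloured by role. The dashed line marks equal change. WIPI1 lies near it at 0.48 in both lines, TFEB at 0.36 in MV4-11 and −0.15 in THP1, and CTSZ at −0.09 and −0.41.

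The 5 genes with the palindrome TCACGTGA in their window differed among themselves in their change with IACS. In MV4-11 after 24 h the log2 changes were −0.03 for ATG3, 0.28 for LAMP1, 0.37 for MCOLN1, 0.04 for CTSA and 0.33 for GAA. In THP1 they were −0.46, −0.23, 0.00, −0.22 and −0.09. None was called in either line.

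These 142 further genes, the wider set, were read in the same way: other autophagy machinery, hydrolases and membrane proteins, vacuolar ATPase subunits, regulators upstream of TFEB and TFE3, and mannose 6-phosphate sorting. With IACS, limma called none of the genes tested in either line at either time (0 of 132 in MV4-11 and 0 of 136 in THP1), against shares of 0.0148%, 0.0886%, 0.0144% and 0.0431% of all genes. At an unadjusted p under 0.05 there were 3 after 8 h (2.27%, against 4.39% of all genes) and 14 after 24 h (10.6%, against 12.0%) in MV4-11, all higher. In THP1 there were 0 after 8 h (against 2.11%) and 11 after 24 h (8.09%, against 8.61%), of which 9 were lower. None of these shares exceeded that of all genes. In MV4-11 the largest change after 24 h was that of ATG16L2, a relative of ATG16L1, at 26.1, 24.1 and 23.8 TPM in DMSO and 44.8, 46.1 and 33.7 TPM after 24 h (log2 change 0.72, limma adjusted p = 0.108). TMEM175, a lysosomal ion channel, followed, at 7.99, 8.20 and 9.84 TPM in DMSO and 13.8, 14.7 and 15.9 TPM after 24 h (0.71, limma adjusted p = 0.115). Both were without overlap, and after rescaling both were called (0.62, limma adjusted p = 0.0282, and 0.62, adjusted p = 0.0348).

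After 8 h the largest changes of the wider set in MV4-11 were those of DNASE2, the lysosomal DNase (means 1.53 and 2.66 TPM), and ATG16L2 (24.6 and 34.4 TPM). In THP1 after 8 h they were those of CTSK (3.83 and 2.51 TPM) and the sulfatase GALNS (9.40 and 7.45 TPM). In THP1 after 24 h the largest were VAMP8, which drives fusion of autophagosome and lysosome (means 334 and 218 TPM, log2 change −0.64, limma adjusted p = 0.414, or 0.0070 with the replicate block, a call), and SORT1, a sorting receptor for hydrolases. SORT1 was at 3.58, 3.21 and 2.56 TPM in DMSO and 4.95, 5.39 and 4.95 TPM after 24 h (0.57, limma adjusted p = 0.414), and after rescaling it was called (0.67, limma adjusted p = 0.0166).

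Between the lines in DMSO the wider set differed in 51 of 135 genes tested, 31 higher and 20 lower in THP1. The share called, 37.8%, lay near the 36.9% of all genes, with 23.0% higher and 14.8% lower against 19.7% and 17.2%. As counts, of 21 wider membrane proteins 10 were higher and 3 lower, of 31 hydrolases and cofactors 7 were higher and 4 lower, of 17 vacuolar ATPase subunits 4 were higher and 0 lower, and of 39 autophagy machinery genes 3 were higher and 10 lower. The lines' responses differed most for CTSK (−0.65) and GALNS (−0.53) after 8 h and for DNASE2 (−1.02) and TMEM175 (−0.92) after 24 h, with no call in the fit without a replicate block. PPT1, a thioesterase that removes palmitate from proteins, had means of 1574 TPM in THP1 and 89.1 TPM in MV4-11 (log2 difference 4.13). FUNDC1, a mitophagy receptor, was listed at 0 in all THP1 DMSO libraries and had a mean of 20.3 TPM in MV4-11.

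For scale, genes of the integrated stress response were read in the same fits. CHAC1, which degrades glutathione, was called in MV4-11 after 8 h (log2 change 1.47, limma adjusted p = 0.00315) and after 24 h (1.07, adjusted p = 0.0212). ASNS, asparagine synthetase, had a log2 change of 1.37 in THP1 after 24 h (limma adjusted p = 0.0658, or 0.0043 with the replicate block, a call). These changes exceeded those of every autophagy and lysosome gene in the same comparison. TRIB3, DDIT3 and ATF4 were also read and are not given here. The ASNS change after 24 h was larger in THP1 than in MV4-11 by 0.81 on the log2 scale (limma adjusted p = 0.633). In MV4-11 after 24 h ASNS thus did not exceed GABARAPL1, so the comparison does not hold for every stress gene in both lines.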

How the data were processed

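RNA was sequenced with a kit that does not mark strand. The authors trimmed the reads, mapped them to GRCh38 (hg38 in the labels) in CLC Genomics Workbench and deposited a table of TPM values per gene symbol, each library summing to the same total. TPM values are not counts, so limma (3.58.1, R 4.3.3, trend on) was fitted to log2(TPM + 1) for genes whose mean in the fitted libraries reached 1 TPM. Each line was fitted alone (9 libraries), and all 18 libraries were fitted together for the comparison of lines and of responses. A log2 change on this scale understates the change of low genes. Calls needed a fold beyond 1.5 and an adjusted p (Benjamini-Hochberg) under 0.05. Standard errors are those of limma and intervals are 95%.

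Read numbers were estimated from the spacing of low TPM values. Of these values 79.8% to 81.5% came out whole within 0.05 of a read, so no count test was run. Intervals cover the spread between libraries, which nothing in the labels ties to separate cultures beyond the words on independent replicates.

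Libraries with the same number deviated together between DMSO and 24 h (r of 0.15, 0.16 and 0.32) and between 8 h and 24 h (0.18, 0.28 and 0.36) in THP1. The rule was that all 3 r be above 0.1. In MV4-11 this held between 8 h and 24 h as deposited (0.11, 0.41 and 0.44), not after rescaling (0.089, 0.40 and 0.42). It did not hold in MV4-11 between DMSO and 8 h (0.034, 0.086 and 0.20). Between DMSO and 24 h in MV4-11 it failed only through number 2 (0.27, 0.066 and 0.44). The correlations, across genes, decided where a replicate block is given beside a value. The labels give a replicate number and do not state a pairing.

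Alternatives were median-of-ratios rescaling, a pseudocount of 0.1, no filter and a filter at 10 TPM, removal of 5 non-coding RNAs, the replicate block, unadjusted p, an exact Kruskal-Wallis test and each library left out. The method was tested on simulated data. Values in every library are given for the 2 largest changes in each direction in each comparison with DMSO, the largest calls between the lines, and SQSTM1, GABARAPL1, MAP1LC3B, TFEB, TFE3, LAMP1 and CTSD. The members and lists were chosen with earlier results of these data known. Promoter windows were read from RefSeq.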

Additional observations from a re-analysis of the deposited data

Results flagged for a closer look

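As deposited, the responses of the lines to 24 h of IACS went in opposite directions for TFEB and LAMP1. Every MV4-11 library lay above and every THP1 library below the DMSO libraries of its line. After rescaling this separation held only for TFEB in THP1, and the other ranges overlapped DMSO. The THP1 response minus the MV4-11 response was −0.69 on the log2 scale for TFEB (limma adjusted p = 0.681) and −0.51 for LAMP1 (limma adjusted p = 0.666). After rescaling the differences were −0.49 and −0.29, and without the replicate 3 libraries of MV4-11 with IACS they were −0.56 and −0.41.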

How the results depend on the processing

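The number of members called after 24 h of IACS in MV4-11 was 0, and it was 2 (GABARAPL1 and WIPI1) without the replicate 3 libraries of MV4-11 with IACS, 1 (GABARAPL1) with no adjustment of p, and 0 to 1 when single libraries were left out, the 1 again being GABARAPL1 without replicate 3 at 24 h. The number of members whose response differed between the lines after 24 h was 0, and 1 (TFEB) with no adjustment of p. The 13 members called between the lines in DMSO were 12 after rescaling and 13 with the replicate block, and the block left 0 members called in every comparison with IACS. In MV4-11 the DMSO and 24 h libraries of number 2 (r of 0.066) fell short of the rule for a block. There the block called 2 of the wider set after 24 h (ATG16L2 and TMEM175). It called 4 for the difference in response after 24 h (limma adjusted p of 0.0284 for TMEM175, 0.0319 for PSAP, 0.0469 for DNASE2 and 0.0478 for CD68). No value changed sign with a call, and of the values for genes given in every library by the naming rule 1076 kept their side of the threshold and 4 came to be called. NEU1, outside that rule, lost its call between the lines after rescaling. TPM is a share, so the direction of the members as a group in THP1 is not fixed by these data. Genes near 1 TPM (GABARAPL1, WIPI1, SGSH) rest on few reads.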
